A study of Mus musculus with 4 samples.

Results

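Cultured spermatogonia (GS cells, germline stem cells grown from mouse testis) of strains 129 and C57BL/6 (B6) were compared for 38 antioxidant and glutathione genes. The genes were chosen by name, as enzymes and regulators that remove reactive oxygen species or make and use glutathione, and each matched 1 of the 32285 genes in the count table. All 38 passed the low-count filter that left 16005 genes for testing. The study held 2 libraries from wild-type 129 cells and 2 from wild-type B6 cells, all established from mice aged 10 days. The B6 titles also carry the term F0, which the labels do not explain. The labels name no substrain, and they do not say how many animals or cultures stand behind the 2 libraries of a strain, so the p-values measure the spread between libraries, which may be technical.

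Library totals were 20375086 to 20798809 counts in 129 and 20488618 to 25374801 counts in B6. Germ cell markers were read in every library: Ddx4, a germ cell RNA helicase, was at 276 and 379 CPM in 129 and at 517 and 454 CPM in B6. CPM are read counts scaled to library size, here with library sizes adjusted by TMM. The 15 germ cell markers summed to 3047 and 3951 CPM in 129 and 4312 and 4353 CPM in B6. They went both ways but leaned lower in 129: 3 of the 15 had a log2 fold change above 0, against 50.9% of all genes tested. The median was -0.49. EdgeR called 1 higher in 129 (Etv5, log2 fold change 1.64) and 2 lower (Uchl1, -1.20, and Sohlh1, -1.55). DESeq2 called 2 higher, with Ret, and 3 lower, with Id4. Of all genes tested edgeR called 2.86% and DESeq2 15.3%. Both 129 libraries lay above B6 for 2 of the 15 and below for 8, against 31% and 29.2% of all genes tested. The 15 fibroblast markers summed to 3228 and 1319 CPM in 129 and 4605 and 2913 CPM in B6. In such bulk RNA, fewer cells of a type and less RNA per cell cannot be told apart.

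Cells remove hydrogen peroxide and other peroxides along a pair of linked routes, both paid for with NADPH. Peroxiredoxins are recharged by thioredoxin and thioredoxin reductase, while glutathione peroxidases and transferases use glutathione, which is made from imported cystine and recycled by glutathione reductase. Many of these genes are induced by the transcription factor NRF2 (Nfe2l2), which KEAP1 holds back until the cell is oxidised, and which binds the antioxidant response element together with small MAF proteins. In the mouse testis reactive oxygen species are known both to damage germ cells and to promote self-renewal of spermatogonial stem cells.

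The largest strain differences lay among the glutathione transferases, whose 129 libraries all stood above B6, while the genes that make and recycle glutathione had log2 fold changes below 0. Gstt1 alone passed edgeR's quasi-likelihood test with Benjamini-Hochberg adjustment over all genes. That is 1 gene higher and 0 lower of 38, where edgeR called 2.86% of all genes tested, 1.84% higher and 1.02% lower. DESeq2 called 12 of the 38 genes, 11 higher and 1 lower, where it called 15.3% of all genes, 9.63% higher and 5.7% lower. Limma-voom called 0, with 13 at an unadjusted p under 0.05, and called 1.54% of all genes. In edgeR 15 genes were higher and 2 lower at an unadjusted p under 0.05, a level that 28.1% of all genes reached. The libraries of the strains lay apart with 129 higher for 19 genes and with 129 lower for 7, together 26 of 38, against 31%, 29.2% and together 60.1% of all genes tested. The log2 fold change was above 0 for 25 of the 38 genes and for 50.9% of all genes. The median log2 fold change of 129 over B6 was 0.55, beside 0.02 over all genes tested, and it was 0.13 without 129 replicate 1.

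**Figure D1:**
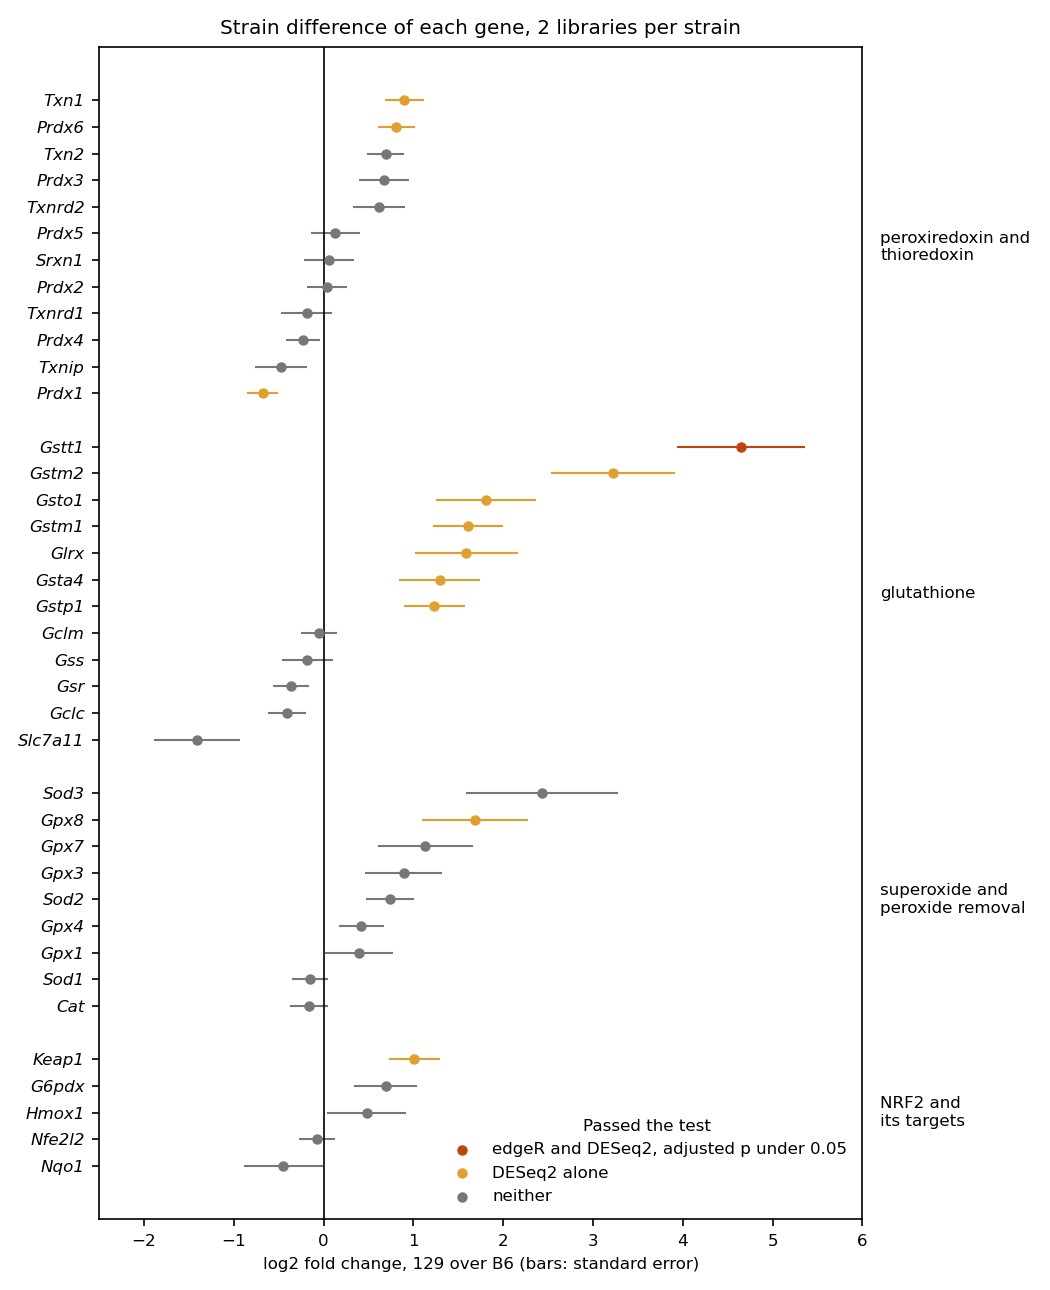
Fitted log2 fold change of 129 over B6 for each of the 38 genes, grouped by role, with bars of 1 standard error from 2 libraries per strain. Red marks genes that passed edgeR and DESeq2, orange DESeq2 alone and grey neither: Gstt1 (4.65) is the red point, and the other transferases lie between 1.23 and 3.22.

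Among the 6 glutathione transferases, which join glutathione to reactive molecules, both 129 libraries lay above both B6 libraries for every gene. That order held for 31% of all genes tested. Gstt1, the theta class enzyme (chr10:75783813-75798584, minus strand, GRCm38), was at 31.5 and 11.4 CPM in 129 and at 0.723 and 0.99 CPM in B6. Its mean was 25-fold higher in 129 (log2 fold change 4.65, SE 0.71, adjusted p = 0.035 in edgeR). The call ended in limma-voom (adjusted p = 0.06) and without 129 replicate 1 (log2 fold change 3.75), B6 replicate 1 (4.42) or B6 replicate 2 (4.84), with edgeR adjusted p up to 0.19. Without 129 replicate 2 the call held, with a log2 fold change of 5.21.

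Gstm2, a mu class enzyme (chr3:107981702-107986453, minus strand), had 37.9 and 14.2 CPM in 129 against 4.1 and 1.34 CPM in B6 (log2 fold change 3.22, SE 0.69, adjusted p = 0.055 in edgeR). Its B6 libraries differed from each other about as much as the 129 libraries did, by 1.41 on the log2 scale in 129 and 1.62 in B6. Its log2 fold change was 2.35 without 129 replicate 1 and 4.27 without B6 replicate 1. Gstm1, another mu class enzyme, had 45.7 and 24.6 CPM in 129 against 10.2 and 12.9 CPM in B6 (log2 fold change 1.61, SE 0.39). Of the 76-base windows in Gstm1 transcripts, 11.4% also occur in other genes, the most in the pseudogene Gstm2-ps1.

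Gsto1, the omega class enzyme that also reduces dehydroascorbate, had the highest level of the 6 per kilobase of exon, 73.6 CPM per kilobase in 129 and 21.1 in B6. It had 217 and 80.6 CPM in 129 and 26.3 and 59 CPM in B6 (log2 fold change 1.81, SE 0.56). The lower 129 library thus stood close to the higher B6 library. Without 129 replicate 1 its log2 fold change was 0.93 and without B6 replicate 2 it was 2.46.

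Gsta4, the alpha class enzyme that detoxifies lipid aldehydes, had 50.4 and 35.6 CPM in 129 and 10.2 and 25 CPM in B6 (log2 fold change 1.29, SE 0.45), and 0.77 without B6 replicate 1. Gstp1, the pi class enzyme, had 44.1 and 30.3 CPM in 129 and 13 and 18.9 CPM in B6 (log2 fold change 1.23, SE 0.34). For Gstp1 29% of its transcript windows also occur in other genes, the most in Gstp2. DESeq2 called all 6 of these genes higher in 129, as it did 9.63% of all genes. The median log2 fold change of the 6 was 1.71, and it was 1.06 without 129 replicate 1 and 2.24 without B6 replicate 2.

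**Figure D2:**
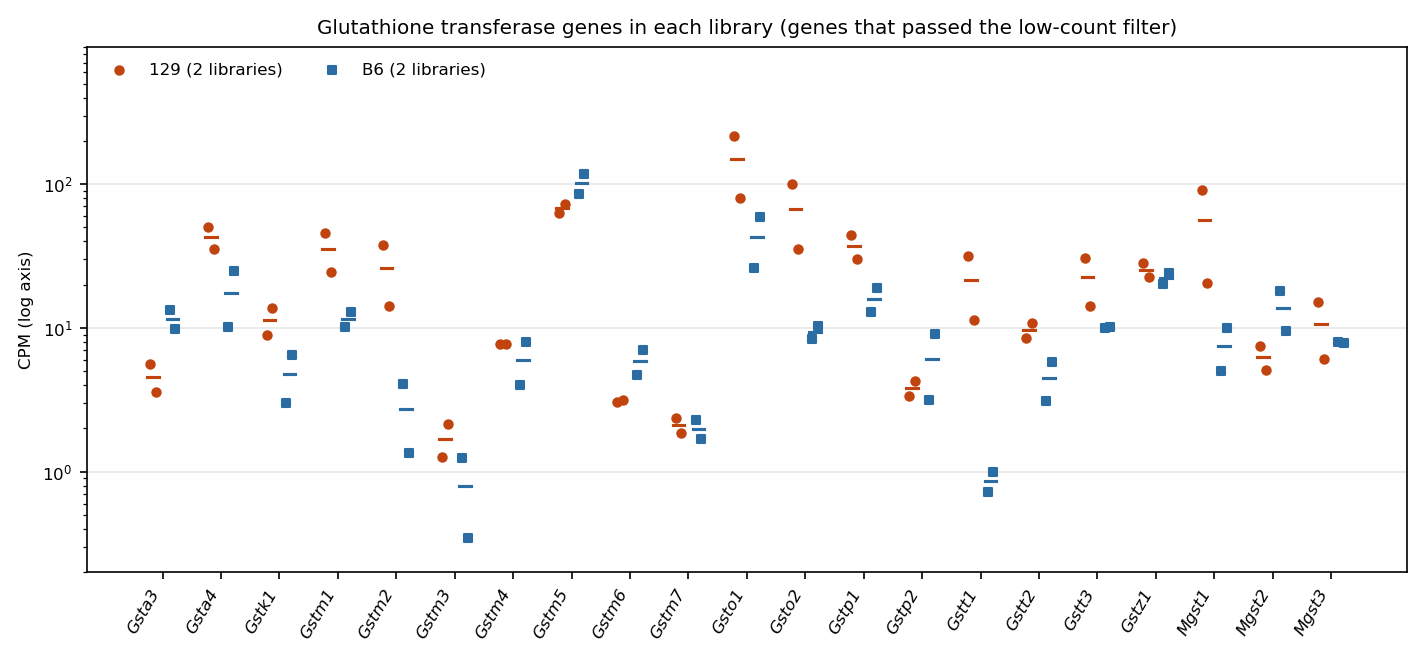
CPM of the 21 glutathione transferase genes that passed the low-count filter, on a log axis, with 2 libraries per strain and a bar at each mean. Gstt1 stands at 31.5 and 11.4 CPM in 129 against 0.723 and 0.99 CPM in B6, whereas Gsta3, Gstm5, Gstm6 and Mgst2 lie lower in 129.

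The wider family went both ways. Of 18 further transferase genes 15 were tested, 1 was called higher and 0 lower by edgeR, and 10 had a log2 fold change above 0. Without adjustment 5 were higher and 3 lower at a p under 0.05, and DESeq2 called 2 higher and 1 lower. Across all genes tested the shares were 2.86% in edgeR, 28.1% without adjustment and 15.3% in DESeq2. Gsto2, the neighbour of Gsto1, rose to 100 and 35.2 CPM in 129 against 8.36 and 10.3 CPM in B6 (log2 fold change 2.86, SE 0.52, adjusted p = 0.047 in edgeR). Its call ended without 129 replicate 1 (1.92), without either B6 replicate (2.71 and 2.97), in limma-voom and under other filters, with adjusted p up to 0.22. Mgst1, a membrane-bound transferase, had 91.1 and 20.7 CPM in 129 and 4.98 and 10 CPM in B6 (log2 fold change 2.91, SE 0.75). Gsta3 went the other way, with 5.6 and 3.56 CPM in 129 and 13.3 and 9.8 CPM in B6 (log2 fold change -1.34, SE 0.44).

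The genes that supply and recycle glutathione did not share this pattern. All 5 had a log2 fold change below 0, with a median of -0.36. In 3 both 129 libraries lay below both B6 libraries, as in 29.2% of all genes tested. None passed edgeR, DESeq2 or limma-voom. An unadjusted edgeR p under 0.05, which 28.1% of all genes reached, was found for 1. That gene was Slc7a11, the cystine importer, at 2.03 and 1.56 CPM in 129 and 4.18 and 5.45 CPM in B6 (log2 fold change -1.41, SE 0.48, adjusted p = 0.12 in edgeR). Per kilobase of exon it was the lowest of the 38 genes, at 0.129 CPM in 129 and 0.346 CPM in B6. Its low counts, 42 and 33 in 129 and 104 and 110 in B6, limit the precision of that difference.

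Glutathione is built in a first step by the catalytic subunit Gclc with its modifier Gclm. Gclc had 164 and 195 CPM in 129 and 207 and 270 CPM in B6 (log2 fold change -0.41, SE 0.21). Gclm had 84.8 and 103 CPM in 129 and 94.2 and 100 CPM in B6, so its libraries overlapped (log2 fold change -0.05, SE 0.20). Gss, the synthase of the second step, also overlapped between the strains (log2 fold change -0.18, SE 0.28). Gsr, the reductase that recycles oxidised glutathione, had 279 and 305 CPM in 129 and 427 and 322 CPM in B6 (log2 fold change -0.36, SE 0.20). Per kilobase it was the second most abundant of the 38 genes, with 106 CPM in 129 and 136 CPM in B6.

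Glrx, glutaredoxin, uses glutathione to reduce mixed disulfides on proteins. It had 38.2 and 13.4 CPM in 129 and 6.35 and 10.9 CPM in B6 (log2 fold change 1.59, SE 0.57). DESeq2 called it and edgeR did not (edgeR adjusted p = 0.13). Without 129 replicate 1 its log2 fold change was 0.65.

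**Figure D3:**
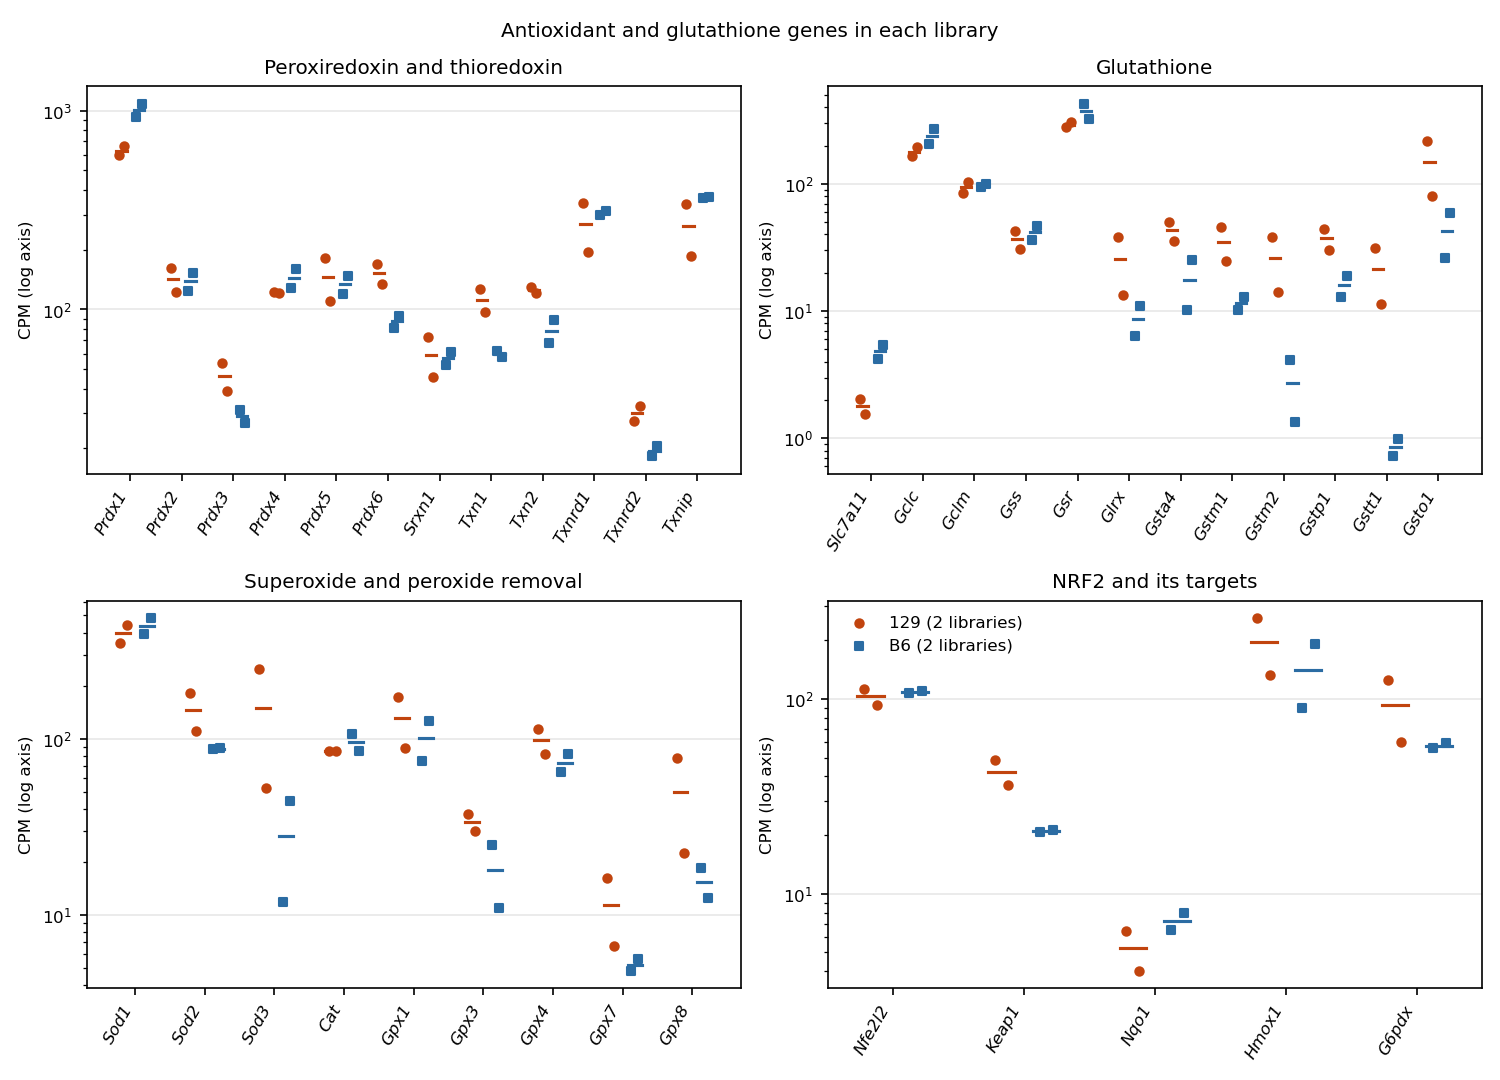
CPM of the 38 genes in each library, on log axes, in panels by role, with 129 (circles) left of B6 (squares) and a bar at each mean of 2 libraries. Prdx1 was the most abundant, at 598 and 661 CPM in 129 and 930 and 1084 CPM in B6, and Gstt1 had the lowest B6 values, 0.723 and 0.99 CPM.

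In the peroxiredoxin and thioredoxin route the genes went both ways. Of 12 genes 0 passed edgeR, 4 were higher and 1 lower in 129 at an unadjusted p under 0.05, and DESeq2 called 2 higher and 1 lower. Over all genes tested 28.1% reached that p and DESeq2 called 15.3%. Prdx1, the main cytosolic peroxiredoxin, was the most abundant of all 38 genes per kilobase of exon, with 207 CPM in 129 and 331 CPM in B6. It had 598 and 661 CPM in 129 against 930 and 1084 CPM in B6 (log2 fold change -0.68, SE 0.17, adjusted p = 0.069 in edgeR). The gap between the strains was wider than that between the libraries of either strain, and the log2 fold change stayed within -0.79 to -0.60 with each library left out.

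Prdx6, which reduces phospholipid peroxides, showed the opposite order. It had 169 and 135 CPM in 129 and 81.1 and 93 CPM in B6 (log2 fold change 0.81, SE 0.21, adjusted p = 0.07 in edgeR). Prdx3, the mitochondrial peroxiredoxin, had 54.1 and 38.7 CPM in 129 and 31.3 and 27 CPM in B6 (log2 fold change 0.67, SE 0.28). Prdx2, Prdx4 and Prdx5 had log2 fold changes between -0.23 and 0.13, with SE of 0.19 to 0.27, and none had an unadjusted p under 0.05. Srxn1, which repairs overoxidised peroxiredoxins, had 72.4 and 45.5 CPM in 129 and 52.6 and 60.8 CPM in B6, so its libraries overlapped.

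Both thioredoxins had each 129 library above both B6 libraries. Txn1, the cytosolic form, had 127 and 97.2 CPM in 129 and 62.1 and 57.9 CPM in B6 (log2 fold change 0.90, SE 0.22, adjusted p = 0.064 in edgeR). Txn2, the mitochondrial form, had 130 and 121 CPM in 129 and 67.6 and 88.1 CPM in B6 (log2 fold change 0.69, SE 0.21). The reductases that recharge them differed from each other: Txnrd2, the mitochondrial one, had 27.4 and 32.6 CPM in 129 and 18.3 and 20.6 CPM in B6, while Txnrd1 overlapped. Txnrd1, the cytosolic reductase, had 342 and 194 CPM in 129 and 299 and 313 CPM in B6. Txnip, an inhibitor of thioredoxin, had 341 and 185 CPM in 129 and 362 and 367 CPM in B6 (log2 fold change -0.47, SE 0.29), and 13.8% of its transcript windows also occur in other genes, the most in Gm15441 on the opposite strand.

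Among enzymes that remove superoxide and peroxide, those of the cell exterior and the endoplasmic reticulum had the largest log2 fold changes. Of 9 genes 0 passed edgeR and 1, Gpx8, was called by DESeq2, while 3 were higher and 0 lower at an unadjusted p under 0.05. Among all genes tested DESeq2 called 15.3%, and 28.1% reached that unadjusted p. Sod3, the secreted superoxide dismutase, had 248 and 52.3 CPM in 129 and 11.8 and 44.5 CPM in B6 (log2 fold change 2.43, SE 0.85, adjusted p = 0.13 in edgeR). Each strain spread over a range of more than 3-fold, and without 129 replicate 1 the log2 fold change was 0.91. Gpx8, a peroxidase of the endoplasmic reticulum, had 77.5 and 22.3 CPM in 129 and 18.4 and 12.4 CPM in B6 (log2 fold change 1.69, SE 0.59), and 0.53 without 129 replicate 1. Gpx7, its relative in the same compartment, had 16.1 and 6.64 CPM in 129 and 4.82 and 5.59 CPM in B6.

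The other enzymes of this role had log2 fold changes between -0.16 and 0.89. Sod2, the mitochondrial dismutase, had 182 and 110 CPM in 129 and 87.3 and 88.1 CPM in B6 (log2 fold change 0.74, SE 0.27), and 16% of its transcript windows also occur in other genes. Sod1, the cytosolic dismutase, had 351 and 440 CPM in 129 and 393 and 483 CPM in B6, and catalase (Cat) 85.3 and 85.1 CPM in 129 and 106 and 84.6 CPM in B6. Both genes overlapped between the strains, with log2 fold changes of -0.15 (SE 0.20) and -0.16 (SE 0.21). Gpx1 and Gpx4, which reduce peroxides in the cytosol and lipid hydroperoxides in membranes, overlapped as well, at 0.39 (SE 0.38) and 0.42 (SE 0.25). For Gpx4 29.6% of its transcript windows also occur in other genes, the most in the pseudogene Gpx4-ps2. Gpx3, the secreted plasma form, had 37.2 and 29.9 CPM in 129 and 25 and 10.9 CPM in B6 (log2 fold change 0.89, SE 0.43).

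The libraries of the strains overlapped for Nfe2l2 itself and lay apart for its inhibitor. Nfe2l2 had 113 and 93.6 CPM in 129 and 107 and 110 CPM in B6 (log2 fold change -0.07, SE 0.20). Keap1, the adaptor that targets NRF2 for degradation, had 48.5 and 36.1 CPM in 129 and 20.8 and 21.2 CPM in B6, a 2.01-fold higher mean in 129 (log2 fold change 1.01, SE 0.28, adjusted p = 0.082 in edgeR). DESeq2 called Keap1, and its log2 fold change was 0.79 to 1.21 with each library left out. Of its transcript windows 6.11% also occur in other genes, the most in Gm16754 on the opposite strand.

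Classical targets of NRF2 went both ways. Nqo1, the quinone reductase often read as a measure of NRF2 activity, had 6.47 and 4.03 CPM in 129 and 6.51 and 7.92 CPM in B6 (log2 fold change -0.45, SE 0.44). Hmox1, heme oxygenase, had 260 and 133 CPM in 129 and 89.5 and 192 CPM in B6, so the libraries overlapped (log2 fold change 0.48, SE 0.44). G6pdx, which makes NADPH in the pentose phosphate pathway, had 125 and 60.2 CPM in 129 and 55.7 and 59.2 CPM in B6 (log2 fold change 0.69, SE 0.35). Only 129 replicate 1 stood apart for G6pdx, and without it the log2 fold change was 0.07. Of the 38 genes 14 are established NRF2 targets, among them the transferases Gsta4, Gstm1 and Gstp1. The median log2 fold change of the 14 was 0.00, 7 lay above 0, edgeR called 0, and DESeq2 called 4 higher and 1 lower. DESeq2 called 9.63% of all genes higher and 5.7% lower. For the 11 targets outside the transferases the median was -0.19, 4 lay above 0, and DESeq2 called 1 higher (Txn1) and 1 lower (Prdx1).

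The promoters of 32 of the 38 genes, from RefSeq on build GRCm38.p6, were searched for the core of the antioxidant response element, TGACNNNGC, on both strands. Each promoter runs from 250 bases before to 50 bases after a start site. The core was in 7 of 39 promoters of these genes (17.9%) and in 12.4% of all 32851 promoters in the table. The 7 genes were Nfe2l2, Srxn1, Gclm, Prdx1, Txnrd1, Sod1 and G6pdx, whose log2 fold changes ran from -0.68 to 0.69. No match lay in the windows of Gstt1, Gstm1, Gstm2, Gstp1 and Gsto1, or of the further NRF2 targets Txn1, Slc7a11 and Nqo1. The 6 genes with no promoter to search were Prdx6, Gclc, Gsr, Gsta4, Sod3 and Hmox1. Whether the core bears on the strain differences was not tested. The promoters of Gstt1 and Gstm2, with the largest strain differences, are shown with those of the 5 NRF2 targets that hold the core, whose genes had log2 fold changes of -0.68 to 0.69. Each is printed 5′ to 3′ on the strand of its gene. The core is in capitals, and in all 5 it lies on the strand opposite to the gene, so that its reverse complement is printed. Txnrd1 has 3 promoters in the table, and the core is in the one shown.
Gstt1 (chr10:75797682-75797981, strand -): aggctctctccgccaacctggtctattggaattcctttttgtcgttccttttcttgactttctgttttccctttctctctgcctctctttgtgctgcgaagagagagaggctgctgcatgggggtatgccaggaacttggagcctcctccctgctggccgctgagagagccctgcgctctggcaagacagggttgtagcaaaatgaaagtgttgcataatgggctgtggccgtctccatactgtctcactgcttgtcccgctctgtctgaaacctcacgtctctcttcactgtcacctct
Gstm2 (chr3:107986371-107986670, strand -): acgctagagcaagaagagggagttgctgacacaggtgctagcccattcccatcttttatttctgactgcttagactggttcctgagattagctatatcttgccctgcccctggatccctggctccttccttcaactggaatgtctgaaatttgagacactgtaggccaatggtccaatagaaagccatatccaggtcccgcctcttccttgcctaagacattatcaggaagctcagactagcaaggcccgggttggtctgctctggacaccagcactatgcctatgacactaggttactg
Txnrd1 (chr10:82858956-82859255, strand +): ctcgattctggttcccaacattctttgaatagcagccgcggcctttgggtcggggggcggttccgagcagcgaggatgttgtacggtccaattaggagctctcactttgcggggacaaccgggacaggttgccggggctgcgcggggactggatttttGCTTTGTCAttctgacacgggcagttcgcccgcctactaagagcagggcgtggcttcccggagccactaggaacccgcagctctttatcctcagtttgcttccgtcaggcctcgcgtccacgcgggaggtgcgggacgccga
Gclm (chr3:122245307-122245606, strand +): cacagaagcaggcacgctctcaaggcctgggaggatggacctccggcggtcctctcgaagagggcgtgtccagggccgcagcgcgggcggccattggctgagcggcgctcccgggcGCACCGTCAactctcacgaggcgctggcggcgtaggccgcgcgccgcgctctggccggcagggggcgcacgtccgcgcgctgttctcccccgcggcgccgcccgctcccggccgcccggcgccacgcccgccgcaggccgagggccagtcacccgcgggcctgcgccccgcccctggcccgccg
Prdx1 (chr4:116685349-116685648, strand +): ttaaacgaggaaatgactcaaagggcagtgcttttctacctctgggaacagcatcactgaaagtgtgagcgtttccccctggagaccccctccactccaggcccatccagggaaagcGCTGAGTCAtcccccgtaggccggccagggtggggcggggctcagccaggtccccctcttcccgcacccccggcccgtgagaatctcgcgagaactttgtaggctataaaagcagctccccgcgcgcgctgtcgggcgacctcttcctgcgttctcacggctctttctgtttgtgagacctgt
Srxn1 (chr2:152105274-152105573, strand +): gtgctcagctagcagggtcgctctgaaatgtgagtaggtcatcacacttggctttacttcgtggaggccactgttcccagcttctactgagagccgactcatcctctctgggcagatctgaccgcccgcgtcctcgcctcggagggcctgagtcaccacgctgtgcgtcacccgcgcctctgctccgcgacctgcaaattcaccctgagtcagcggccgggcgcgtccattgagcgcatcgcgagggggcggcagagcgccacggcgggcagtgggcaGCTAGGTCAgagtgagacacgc
G6pdx (chrX:74428831-74429130, strand -): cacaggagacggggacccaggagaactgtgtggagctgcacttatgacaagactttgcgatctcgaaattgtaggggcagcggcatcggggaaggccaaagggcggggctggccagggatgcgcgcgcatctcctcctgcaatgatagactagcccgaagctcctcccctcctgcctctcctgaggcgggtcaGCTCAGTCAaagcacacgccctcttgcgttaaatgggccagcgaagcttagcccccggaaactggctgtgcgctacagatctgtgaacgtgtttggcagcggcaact

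The core begins 134 bases before the start site in Gclm, 133 bases before it in Prdx1, 92 bases before it in Txnrd1 and 57 bases before it in G6pdx, and at base 29 after it in Srxn1. These 5 promoters were richer in G and C, at 60% to 79.7%, than those of Gstt1 (53%) and Gstm2 (50%). The median was 60.3% over the 39 promoters of the antioxidant and glutathione genes and 52.7% over all promoters. The GC box GGGCGG, searched on both strands, was in 71.8% of the 39 promoters and in 35.7% of all promoters, but in neither the Gstt1 nor the Gstm2 window. It overlapped the core in none of the 7 promoters. A match describes letters in these windows only.

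The 129 libraries differed from each other along these genes. In 32 of the 38 genes 129 replicate 1 lay above 129 replicate 2, against 49.5% of all genes tested, with a median log2 ratio of 0.49. In B6, replicate 1 lay above replicate 2 for 7 of 38 genes, against 49.6% of all genes, with a median log2 ratio of -0.25. The transferases were the more uneven, with a median log2 ratio of 1.15 between the 129 libraries, while the supply genes were at -0.13. Fibroblast markers had a median log2 ratio of 1.29 in the same direction, with 14 of 15 higher in 129 replicate 1. In B6 they ran against the antioxidant genes, with 13 of 15 higher in replicate 1 and a median log2 ratio of 0.36. Germ cell markers ran against both groups in 129, with 1 of 15 higher in replicate 1 and a median log2 ratio of -0.35. In B6 9 of the 15 germ cell markers were higher in replicate 1, with a median log2 ratio of 0.06.

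Between the strains the fibroblast markers went both ways. Of the 15 markers 1 passed edgeR (Pdgfra, log2 fold change 1.88), and the median log2 fold change was -0.88. In 6 both 129 libraries lay above B6 and in 9 both lay below, against 31% and 29.2% of all genes tested. DESeq2 called 6 higher and 6 lower, and 6 were higher and 6 lower at an unadjusted edgeR p under 0.05. Over all genes tested edgeR called 2.86% and DESeq2 15.3%, and 28.1% reached that unadjusted p. The summed CPM of the fibroblast markers, 3228 and 1319 in 129 and 4605 and 2913 in B6, overlapped between the strains. The sum of 129 replicate 1 lay below that of B6 replicate 1 and above that of B6 replicate 2. Sertoli cell markers summed to 222 and 131 CPM in 129 and 21.3 and 24.2 CPM in B6, of which Clu, which other cells also express, gave 193 and 90.5 CPM in 129 and 3.78 and 10.1 CPM in B6. All 9 tested Sertoli markers had a log2 fold change above 0, against 50.9% of all genes tested, with a median of 1.19. An unadjusted edgeR p under 0.05 was found for 4, against 28.1% of all genes tested. Of these Clu passed edgeR. Wt1 had 12.7 and 26.1 CPM in 129 and 11 and 5.84 CPM in B6, and Sox9, Gata4, Dhh and Amh also had both 129 libraries above B6. The defining Sertoli gene Fshr had no count in either 129 library and 0.0402 and 0 CPM in B6, and Amh stayed under 1 CPM in every library. Of 7 endothelial markers, summing to 108 and 54.1 CPM in 129 and 20 and 18.8 CPM in B6, Cdh5 passed edgeR, at 87.9 and 27 CPM in 129 and 0.723 and 2.62 CPM in B6. Kdr also had both 129 libraries above B6, at 3.96 and 3.7 CPM in 129 and 1.81 and 1.73 CPM in B6, while Pecam1, Tek and Vwf overlapped and Emcn had no count in 129 replicate 1. Macrophage markers summed to 22 and 9.39 CPM in 129 and 26.6 and 23.1 CPM in B6. Peritubular muscle markers summed to 92.2 and 39.9 CPM in 129 and 80.5 and 23.4 CPM in B6, of which Des passed edgeR (log2 fold change 3.16). Tagln of that list was called lower by DESeq2 (log2 fold change -2.58), and Acta2, Myh11 and Cnn1 overlapped. Leydig markers summed to under 10 CPM in every library, with Cyp17a1 at 0 in both 129 libraries. The part of such cells in the antioxidant differences was not tested.

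**Figure D4:**
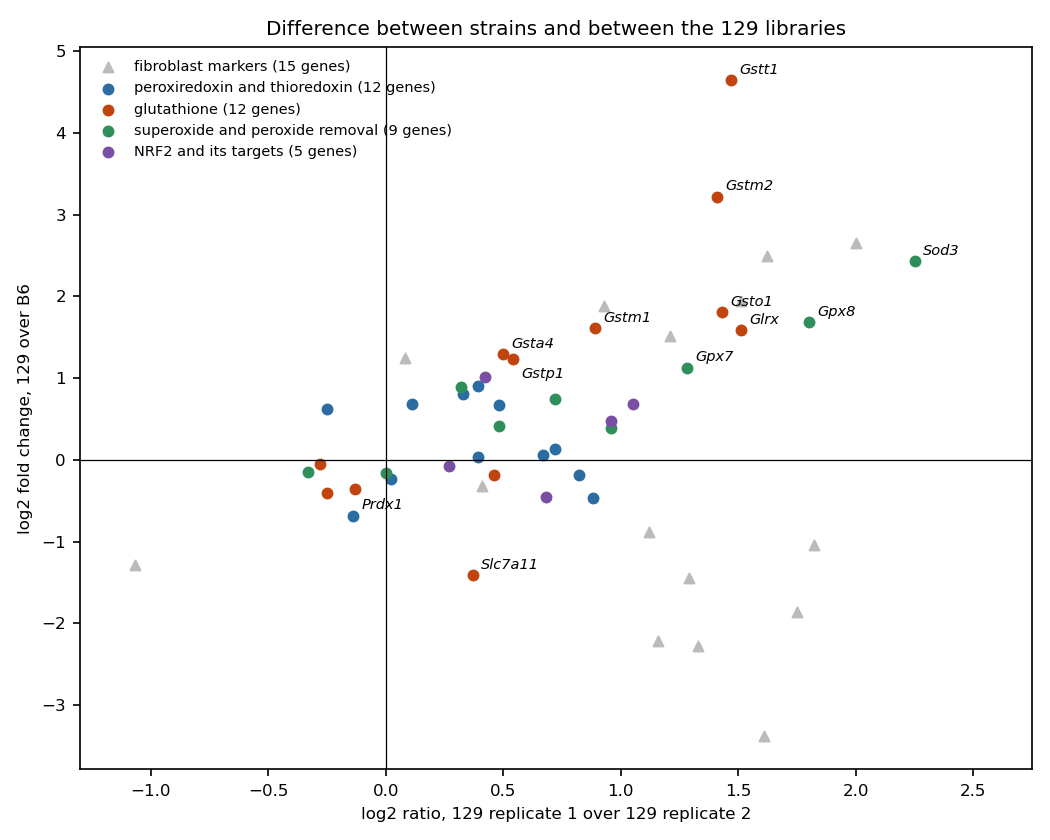
Each point is 1 gene, with the log2 ratio of 129 replicate 1 to 129 replicate 2 on the horizontal axis and the log2 fold change of 129 over B6 on the vertical axis, coloured by role, with 15 fibroblast markers as triangles. Gstt1, Gstm2, Gsto1, Gpx8 and Sod3 lie at the upper right, and fibroblast markers at similar horizontal positions lie both above and below 0.

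Of 118 further genes of the same pathways 106 were tested, and edgeR called 3 higher and 0 lower in 129. Without adjustment 30 were higher and 5 lower at a p under 0.05, DESeq2 called 17 higher and 2 lower, and limma-voom called 0. The shares over all genes tested were 2.86% in edgeR, 28.1% without adjustment, 15.3% in DESeq2 and 1.54% in limma-voom. The 3 calls were Gsto2, Selenop, the secreted selenium carrier, and H6pd, which makes NADPH inside the endoplasmic reticulum. Selenop rose to 200 and 75 CPM in 129 against 21.3 and 17.1 CPM in B6 (log2 fold change 2.84, SE 0.48, adjusted p = 0.044 in edgeR). H6pd rose to 182 and 79.1 CPM in 129 against 25.9 and 26.5 CPM in B6, by 2.32 on the log2 scale (SE 0.40, adjusted p = 0.044 in edgeR). Both calls ended without 129 replicate 1 (log2 fold change 1.97 for Selenop and 1.60 for H6pd), without either B6 replicate, in limma-voom and under other filters, with adjusted p up to 0.21 for each.

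By list, edgeR called 0 of 28 tested partners and targets of NRF2, 1 of 30 other glutathione genes, 1 of 21 thioredoxin-fold and repair genes, 0 of 14 superoxide and peroxide genes and 1 of 13 NADPH supply genes. Unadjusted, 9 of the NRF2 list and 6 of the superoxide list had a p under 0.05, and DESeq2 called 6 and 3. For all genes tested the shares were 2.86% in edgeR, 28.1% unadjusted and 15.3% in DESeq2. Among the NRF2 partners and targets, Aldh3a1, an aldehyde dehydrogenase, had 6.42 and 1.94 CPM in 129 and 0.482 and 0.347 CPM in B6. Aldh1a1, of the same family, had 69.1 and 15.2 CPM in 129 and 8.15 and 1.29 CPM in B6. Pon3, a paraoxonase, had 21.5 and 8.2 CPM in 129 and 2.85 and 2.97 CPM in B6 (log2 fold change 2.35, SE 0.58). Nox4, also of the superoxide list, had 23 and 7.97 CPM in 129 and 4.86 and 2.43 CPM in B6 (log2 fold change 2.06, SE 0.64). Gpx2, the peroxidase known from the gut, was at 7.39 and 17.7 CPM in 129 and 4.02 and 1.93 CPM in B6, and here 129 replicate 2 was the higher library.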

How the data were processed

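RNA was measured by sequencing of stranded mRNA libraries, as single reads of 76 bp, per the labels' protocols. The authors deposited a table of raw read counts for each gene and library. HTSeq 0.13.5 and HISAT2 2.2.1 are named in the submitters' processing notes, with cutadapt 3.4, bcl2fastq 2.20, DESeq2 1.30.1 and build mm10, an assembly of the C57BL/6 genome. Annotation release and strand setting: not given in the sources used here.

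Libraries were assigned to strains from their titles. With edgeR 4.0.16 (R 4.3.3), genes were filtered with filterByExpr, scaled by TMM and tested for strain by the robust quasi-likelihood test (legacy=FALSE) over all 16005 genes. P-values were Benjamini-Hochberg adjusted over all of them at a threshold of 0.05. SE is the absolute log2 fold change over the square root of F. With 2 libraries per strain an exact permutation test of 1 gene cannot go below p = 0.333. Gene positions, exon lengths and shared 76-base windows came from GENCODE M21 (GRCm38). The fits were also run on simulated counts, drawn independently for each gene and library, and no result given here rests on that run. The members and lists were chosen with earlier results of these data known. Among the 38 genes, values in all libraries are given for those called by edgeR or DESeq2 and, in each role, for the 3 largest log2 fold changes and the 2 highest mean CPM. Slc7a11 and other members were added after their values were seen. Of the related genes, those called by edgeR, or the 2 with the largest log2 fold change in a list with none, are given, and others were picked after their values were seen.

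The alternatives were other scalings, filters and estimation, DESeq2 1.42.0, limma-voom (limma 3.58.1), a replicate block and each library left out, plus the legacy edgeR test, which was added after the data were examined.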

Additional observations from a re-analysis of the deposited data

How the results depend on the processing

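Over all genes edgeR called 457. The count was 2455 with DESeq2, 246 with limma-voom, 1052 with library totals, 1021 with upper-quartile factors, 260 with no filter, 281 with a stricter filter and 844 with a replicate block, and 0 to 827 with each library left out. Of the 38 antioxidant and glutathione genes, called 1 time in edgeR, 12 were called with DESeq2, 0 with limma-voom (13 at an unadjusted p under 0.05), 4 with library totals, 2 with upper-quartile factors and 2 with a replicate block, and 0 to 5 with each library left out. The 5 genes without 129 replicate 2 were Gstm1, Gstm2, Gstt1, Gsto1 and Gpx8. The median log2 fold change of the 38 genes was 0.13 to 0.77 with each library left out. Of the related genes, 3 in edgeR, 19 were called with DESeq2, 0 with limma-voom, no filter or the stricter filter (32, 36 and 34 at an unadjusted p under 0.05), 6 with library totals or upper-quartile factors and 7 with a replicate block, and 0 to 10 with each library left out.

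The pairing of libraries by replicate number was checked: the correlation of same-numbered deviations was -0.0141. A single value over all genes cannot show whether same-numbered libraries share a preparation, and the labels do not say. The replicate block added Gstm2 to the calls among the 38 genes. Without any library left out, none of 380 single-gene values under 10 settings changed direction. With 1 library left out 27 genes kept their direction in all 4 fits. The ranges of the others were -0.17 to 0.22 for Prdx2, -0.27 to 0.44 for Prdx5, -0.31 to 0.35 for Srxn1, -0.66 to 0.16 for Txnrd1, -0.19 to 0.09 for Gclm, -0.43 to 0.03 for Gss, -0.32 to 0.01 for Sod1, -0.36 to 0.00 for Cat, -0.17 to 0.79 for Gpx1, -0.21 to 0.06 for Nfe2l2 and -0.07 to 1.09 for Hmox1. The cause was not tested. With 1 library left out, the lone library of a strain is assumed to vary like the other strain. Low counts limit Slc7a11, Gstt1 in B6 and Nqo1.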

Other observations

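Transferase genes lie in clusters, and the clusters differed in how uniform they were. On chromosome 10 the 3 theta class genes of the lists used here were Gstt3 (from 75774115), Gstt1 (from 75783813) and Gstt2 (from 75831114, GRCm38). Their log2 fold changes were 1.16 (SE 0.45), 4.65 (SE 0.71) and 1.13 (SE 0.47). Each had both 129 libraries above both B6 libraries, as did 31% of all genes tested. On chromosome 19 the omega class neighbours Gsto1 and Gsto2 were at 1.81 (SE 0.56) and 2.86 (SE 0.52). The pi class neighbours Gstp1 and Gstp2, also on chromosome 19, differed in direction, at 1.23 (SE 0.34) and -0.65 (SE 0.59). Of the Gstp2 transcript windows 50% also occur in other genes. The mu class cluster on chromosome 3, which holds more genes and so agrees less easily, was mixed. Gstm1 and Gstm2 were at 1.61 (SE 0.39) and 3.22 (SE 0.69), whereas Gstm5 was at -0.57 (SE 0.23) and Gstm6 at -0.92 (SE 0.46), and Gstm3, Gstm4 and Gstm7 at 1.02 (SE 0.67), 0.39 (SE 0.47) and 0.07 (SE 0.48). Gstm5 had 63.4 and 72.8 CPM in 129 and 85.9 and 117 CPM in B6. Of the listed genes in these clusters Gstt1 and Gsto2 passed edgeR.

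A few further genes of the related lists were picked after their values were seen. Fth1, the heavy chain of ferritin, had 1556 and 884 CPM in 129 and 315 and 537 CPM in B6 (log2 fold change 1.52, SE 0.35, edgeR adjusted p = 0.062). Bach1, a repressor of NRF2 targets that heme inactivates, had 89.3 and 94.1 CPM in 129 and 252 and 132 CPM in B6 (log2 fold change -1.07, SE 0.31, edgeR adjusted p = 0.092). Chac1, which degrades glutathione, had 35.7 and 14.7 CPM in 129 and 4.34 and 2.43 CPM in B6 (log2 fold change 2.87, SE 0.57, edgeR adjusted p = 0.051). Nnt, a mitochondrial source of NADPH, had 3 and 11 counts in 129 and 5 and 5 counts in B6, too few to test. Its exons overlap by 47.4% with a second gene of the same name, so its level was not read from these counts.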
